A study of Rattus norvegicus with 12 samples.

Results

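The change in transcript levels between 30 and 60 min was measured in cultured hippocampal neurons by setting the 4 arrays labelled 60 min against the 4 labelled 30 min, which were 8 of the 12 arrays in the series. The neurons came from embryonic day 18.5 Sprague Dawley rats, grew for 12 days on a feeder layer of glia, and were held for 3 h in Block, a mixture of 50 µM D-APV and 40 µM CNQX, which block glutamate receptors, and 100 nM tetrodotoxin, which blocks sodium channels. At each time 1 array was hybridized for each of 4 arms: BiC/4AP (50 µM bicuculline against GABA-A receptors together with 500 µM 4-aminopyridine against potassium channels) with 25 µM actinomycin D (ActD), BiC/4AP without ActD, Block with ActD, and Block without ActD. The labels give treatment times of 30 and 60 min and 3 pooled coverslips per sample, whereas the methods of the study give a stimulus of 5 min with RNA taken 30 or 60 min after it and RNA combined from separate experiments. The labels number the 60 min arrays 89 to 92 and the 30 min arrays 85 to 88, so time and array number cannot be told apart. No condition was repeated, and p-values therefore measure the spread between single pooled samples of different arms.

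The level of an mRNA is set by its transcription and its decay. Synaptic activity switches on immediate early genes such as FOS and ARC within minutes, and their mRNAs are short-lived, whereas mRNAs for ribosomal proteins, glycolytic enzymes and the cytoskeleton are abundant and turn over slowly. ActD stops transcription, so that in its presence a transcript can be made no further but can still be degraded. Several cDNA clones of a gene, each at its own spot on an array, are meant to read the same transcript through different probes. Whether clones with the same symbol did so here was not tested.

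The deposited values were raw spot intensities of 9600 spots, of which 8496 carried 1 gene symbol, standing for 6284 genes. Symbols were assigned by the first of the deposited spot indexes. Spots of ribosomal protein genes had a median brightness percentile of 87.4 by that index and of 58.4 by the second. The clones carry symbols in the style of human genes, and the species and sequence of the cDNA were not examined, so how well rat RNA matched them and whether related genes shared signal was not tested. Median raw intensity was 53.53 to 69.755 units on the 60 min arrays and 37.44 to 58.515 units on the 30 min arrays. Levels below are log2 intensities scaled to the same mean and spread on every array (scaled log2), and clones whose mean intensity over the 12 arrays was under 29.9 units are called dim. Correlations over all spots were 0.947 to 0.957 among the 60 min arrays and 0.912 to 0.958 among the 30 min arrays, or 0.953 to 0.958 among these without the 30 min BiC/4AP array, which stood apart. Results that rest on that array are given with and without it. Of the neuron markers 12 of 29 genes were measured above the dim limit, among them STMN2, ENO2 and SNAP25, and their summed linear level was 29.2 to 30.9 on the 60 min arrays and 29.1 to 33.1 on the 30 min arrays. Astrocyte markers, 7 of 21 genes including GFAP, summed to 17.4 to 20.5 at 60 min and 18.5 to 20.1 at 30 min.

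A group of bright clones was lower at 60 min in the fit over all arms. In limma's fit with activity and ActD as covariates, 238 of 9600 clones (2.48%) passed a Benjamini-Hochberg adjusted p of 0.05, 236 of them lower (2.46% of all clones) and 2 higher (0.0208%). At an unadjusted p under 0.05 there were 1313 clones, where 480 would be expected with no change. The 236 lower clones had a median difference of -1.23 on the log2 scale, or 2.35-fold lower, with quartiles of -1.71 and -0.91. The median over all clones was 0.04, and 55.8% of clones lay above 0. Among the 7200 clones above the dim limit, 159 differed by less than -1 and 4 by more than 1.

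The 6 clones with the smallest p-values among named clones above the dim limit were those of ZNF446, CTPS1, DUSP22, BET1, CCDC47 and ZFP69B. ZNF446 and ZFP69B are zinc finger proteins, CTPS1 makes the nucleotide CTP, DUSP22 is a phosphatase, BET1 is a SNARE protein of transport between the endoplasmic reticulum and the Golgi, and CCDC47 is a membrane protein of the endoplasmic reticulum. The ZNF446 clone had raw intensities of 166.71 in BiC/4AP + ActD, 248.63 in BiC/4AP, 165.49 in Block + ActD and 240.94 in Block at 60 min, and of 956.98, 914.34, 886.29 and 1175.79 in the same arms at 30 min. Its scaled log2 levels were 1.38, 2.05, 1.504 and 1.74 at 60 min against 4.15, 4.21, 4.38 and 4.09 at 30 min, so that all 60 min values lay below all 30 min values. The difference was -2.54 ± 0.18 (SE, limma adjusted p = 2.96e-05), or 5.82-fold lower. The level at 5 min averaged 4.34 ± 0.24 (SD, n = 4), close to the 30 min level of 4.21 ± 0.12 (SD, n = 4).

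The other clones of this group had the same shape. The CTPS1 clone had levels of -0.29, 0.26, 0.04 and 0.37 at 60 min, in the order BiC/4AP + ActD, BiC/4AP, Block + ActD and Block, against 2.42, 2.38, 2.22 and 2.37 at 30 min. The DUSP22 clone had -0.67, -0.34, -0.81 and -0.78 at 60 min against 1.39, 1.57, 1.49 and 1.40 at 30 min. The SD among the arrays was 0.09 at 30 min and 0.29 at 60 min for CTPS1, and 0.09 and 0.21 for DUSP22. Both clones were named for a small p, which favours a small spread. The BET1 clone had 1.46, 2.05, 1.72 and 1.92 at 60 min against 3.92, 4.34, 4.06 and 3.94 at 30 min. The CCDC47 clone had 0.96, 1.46, 1.26 and 1.44 at 60 min against 3.61, 3.36, 3.46 and 3.46 at 30 min, and the ZFP69B clone 1.71, 2.25, 1.72 and 2.05 at 60 min against 4.35, 4.19, 4.44 and 4.14 at 30 min. In each of these 6 clones the BiC/4AP array had the highest or second highest of the 60 min values. Their differences ran from -2.11 to -2.54, each with a limma adjusted p of 2.96e-05, and all 6 passed the threshold under every alternative that was run.

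All 236 lower clones lay below 0 in all 4 arms, and in 233 of them no 60 min value reached any 30 min value. The median differences were -1.32 in BiC/4AP + ActD, -1.11 in BiC/4AP, -1.50 in Block + ActD and -1.18 in Block. The 236 clones were chosen by a fit over the same 8 arrays, so the shared sign and the lack of overlap are largely set by that choice and are given as a description. The share of all clones on the array without such overlap was not counted. In fits within 1 level, with 1 residual degree of freedom each, 227 of the 236 were called lower with ActD, 111 without ActD, 230 in Block and 76 in BiC/4AP. Over all clones these fits called 476, 154, 462 and 78 lower, in the same order. They reuse arrays by which the 236 were chosen, so this recovery is also largely set by that choice. In the median the 236 clones differed less between the earlier times: the median difference of 30 minus 5 min was -0.19 in BiC/4AP + ActD, -0.25 in BiC/4AP, -0.07 in Block + ActD and -0.07 in Block. In 226 of the 236 every 5 min value also lay above every 60 min value, a count whose share over all clones was not taken either. Their median level over the arrays was 2.39 to 2.71 at 5 min, 2.42 to 2.60 at 30 min and 1.01 to 1.32 at 60 min. The drop from 30 to 60 min is set by the choice of clones. The 5 min arrays took no part in that choice, but the 60 min arrays did. The gap between 5 and 60 min is therefore also partly set by it. The labels number the 5 min arrays 81 to 84, so time and array number cannot be told apart there either.

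**Figure D1:**
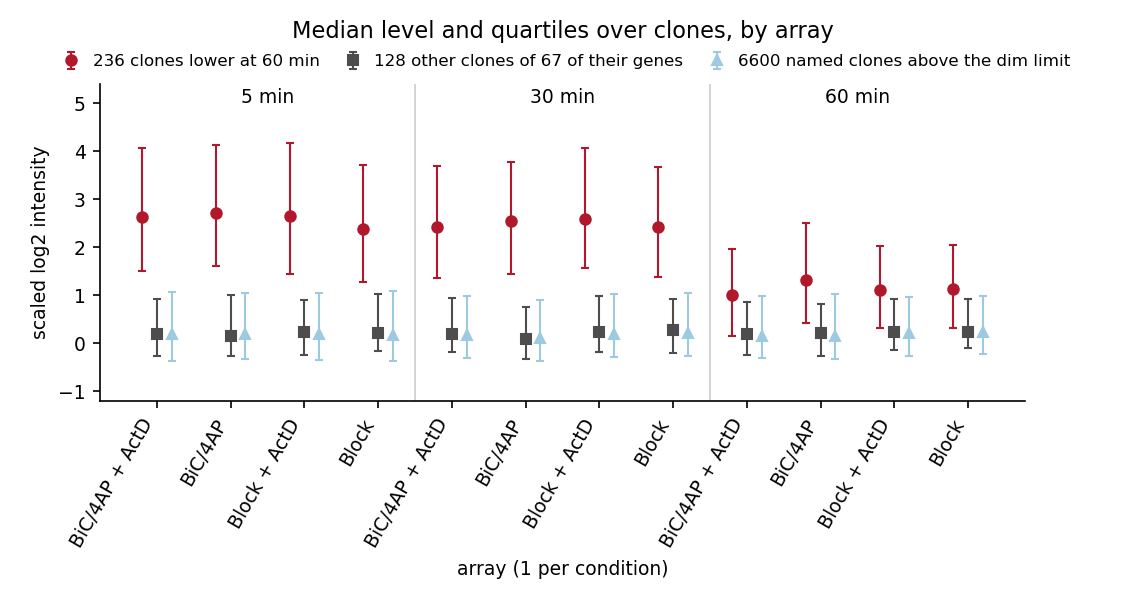
Scaled log2 intensity on each of the 12 arrays (1 per condition), at 5, 30 and 60 min. Points are medians and bars quartiles over the 236 clones called lower at 60 min, over the 128 uncalled clones of 67 of their genes, and over all 6600 named clones above the dim limit. The called clones had medians of 2.39 to 2.71 on the 5 and 30 min arrays and of 1.01 to 1.32 on the 60 min arrays, while the medians of the other sets stayed between 0.09 and 0.28 on all arrays.

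The clones of this group were bright. Their median brightness percentile among all spots was 92.2, with quartiles of 82.6 and 96.2, and 12 of the 236 were dim. They lay in 179 of the 384 blocks of the array and at 23 of the 24 positions of a block that held clones. Position 3 held 35 of them, which was 11.7% of its clones above the dim limit, and position 16 held none. The median difference of the uncalled clones above the dim limit was -0.23 at position 3 and 0.19 at position 16. With block and position medians removed from each array 208 clones were lower, of which 177 were among the 236. The part of printing position in the result was not tested further.

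The lower clones were spread over many pathways, each represented by 1 to 3 clones. In gene values (means over the clones above the dim limit) limma called 176 of 5079 named genes (3.47%), 174 lower (3.43%) and 2 higher (0.0394%). NDUFA3 and NDUFB11, subunits of complex I of the respiratory chain, had a single clone each. Their gene values differed by -2.50 ± 0.20 and -2.32 ± 0.22 (SE, limma adjusted p = 4.3e-05 and 0.000109). NDUFA3 had levels of 2.10, 2.82, 2.23 and 2.65 at 60 min, in the arm order given above, against 5.01, 5.00, 5.14 and 4.67 at 30 min. Yet 30 of the 57 measured genes of the respiratory chain and ATP synthase lay above 0, and their median was 0.01. CORO1C, an actin-binding coronin, differed by -2.10 ± 0.20 (SE, limma adjusted p = 0.000111), TBCC, a cofactor of tubulin folding, by -1.76 ± 0.21 (0.00044), and TAF11, a subunit of the general transcription factor TFIID, by -1.53 ± 0.13 (6.22e-05). CORO1C, TBCC and TAF11 also had a single clone each. The medians of their lists, actin and actin-binding, axon and cytoskeleton, and RNA polymerase and general transcription factors, were 0.02, 0.00 and 0.04.

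Clones named for genes of blood and immune cells were also present, a set picked after its values were seen, with no fixed list or test behind it. HCLS1, an actin regulator of blood cells, differed by -2.55 ± 0.22 (SE), CFP, the complement factor properdin, by -2.44 ± 0.20, and ALOX5AP, of leukotriene synthesis, by -2.10 ± 0.18, with limma adjusted p-values of 3.91e-05, 2.96e-05 and 3.51e-05. The immunoglobulin heavy chain genes IGHM and IGHG1, products of B cells, had called clones at -1.90 for IGHM and at -2.25 and -1.04 for IGHG1, beside 7 uncalled IGHM clones between -0.24 and 0.26 and 3 uncalled IGHG1 clones at 0.33, 0.19 and 0.07. The 7 measured microglia markers contained no called clone, with a median difference of 0.09 and a summed linear level of 132.9 to 195.5 at 60 min against 176.3 to 302 at 30 min. That sum was carried by the single clone of C1QB, a complement component, at 10912 units, which differed by -0.46 and was not called (limma adjusted p = 0.492), while the other 6 microglia clones had 38.8 to 93.0 units. Among the 9 measured fibroblast and vessel markers FN1, fibronectin, was called, with levels of 3.02, 3.79, 3.16 and 3.07 at 60 min against 5.12, 5.65, 5.65 and 5.35 at 30 min. Their summed linear level was 59.6 to 83.6 at 60 min and 109.9 to 151.9 at 30 min, and 4 of the 9 genes lay above 0. This sum was carried by the single clones of ACTA2 (3613 units) and FN1 (1584 units), of which ACTA2 differed by -0.48 and was not called. The other clones of this list above the dim limit had 30.2 to 82.7 units. The median level of the list was 0.12 to 0.17 on the 60 min arrays. At 30 min it was -0.16 in BiC/4AP and 0.16 to 0.20 in the other arms. The part of these cells in the lower clones was not tested. In such cultures fewer cells of a type and less RNA per cell cannot be told apart.

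Agreement between spots with the same gene symbol was examined through genes with several clones. Of the 215 named lower clones above the dim limit (3.26% of 6600 such clones, with 0.0303% called higher), which stood for 210 genes, 140 were the only clone of their gene. The remaining 70 genes had at least 1 further clone above the dim limit. In 5 of these genes 2 clones were called: ALDOA, FIBP, IGHG1, LRRFIP1 and PTPN6. In 67 of the 70 genes at least 1 clone was not called. Over these 67 genes the 69 called clones had a median difference of -1.19, whereas the 128 uncalled clones had a median of 0.06, with 52 below 0 and 76 above. The uncalled clones ran from -0.73 to 0.62, 4 of them were below -0.5, none was below -1, and 11 had an unadjusted p under 0.05. The choice of uncalled clones leaves out the lowest values, so no test was made between the sets. Of the uncalled clones 59.4% lay above 0, close to the 58.2% among all clones above the dim limit.

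The uncalled clones were dimmer, with a median brightness percentile of 62.4 against 92.6 for the called clones of the same genes. A limit set after these values were seen, the lower quartile of the called clones, left 25 of the 128. Their median difference was 0.15, 7 lay below 0, and they ran from -0.55 to 0.62. Of all 1497 named clones above that limit 170 (11.4%) were called lower. Single genes showed the same contrast. BET1 had a further clone at 0.17, DUSP22 1 dim clone at 0.03, CCDC47 a pair at 0.45 and 0.19, and IGHM 7 uncalled clones between -0.24 and 0.26 beside the called clone at -1.90. The brightest clone of CCDC47 (768 units) was at 0.45, while the called clone had 357 units. ZNF446, CTPS1 and ZFP69B had 1 clone each.

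**Figure D2:**
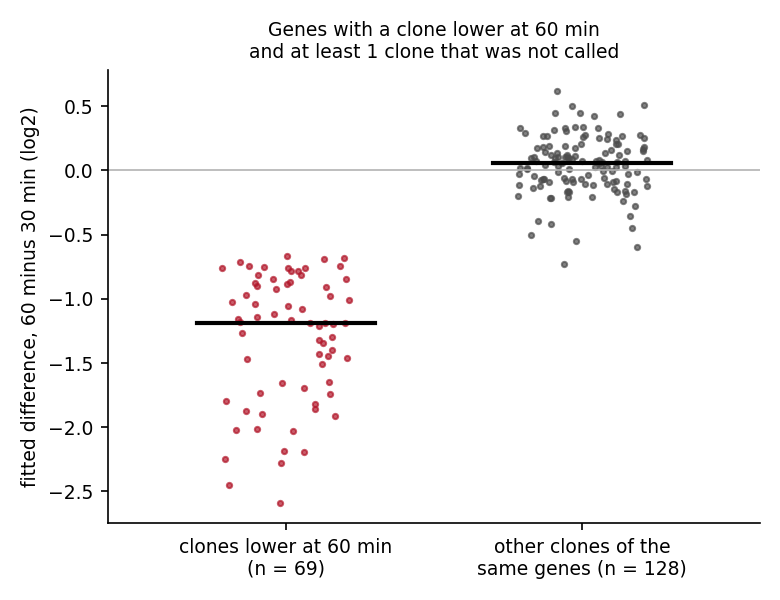
Fitted difference of 60 minus 30 min (log2) for the 69 clones called lower and for the 128 uncalled clones of the same 67 genes. Each point is 1 clone and the line is the median. The called clones had a median of -1.19 and the uncalled clones a median of 0.06.

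Means over clones were then fitted for the 1059 genes with at least 2 clones above the dim limit. limma called 29 genes (2.74%), 28 lower (2.64%) and 1 higher (0.0944%). At an unadjusted p under 0.05 there were 184 genes, where 53 would be expected with no change. Of the 29 genes 4 had 2 called clones, 21 had 1 and 4 had none. All clones lay on the same side of 0 in 19 of the 29 genes, compared with 518 of the 1059 genes (48.9%). In MRPS12, BET1, MRPL24, AGO2, HVCN1, KANSL2, DHPS, TMEM258 and CCDC47, which were called as genes, the clones outside the called one averaged above 0. AGO2, the Argonaute protein that cuts target RNA, had 1 clone at -1.91 and another clone that lay at 0.31. The first had 227 units and the other 37.4 units, near the dim limit.

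PTPN6, FIBP, LRRFIP1 and CNKSR1 were lower through both of their clones, a grouping made after the values were seen. PTPN6, a tyrosine phosphatase best known from blood cells, had a mean over its 2 clones of 0.38 in BiC/4AP + ActD, 0.47 in BiC/4AP, 0.38 in Block + ActD and 0.29 in Block at 60 min, against 1.54, 1.47, 1.61 and 1.42 at 30 min. The groups did not overlap, and the difference was -1.13 ± 0.10 (SE, limma adjusted p = 0.000328), with clones at -1.35 and -0.92. LRRFIP1, a nucleic acid-binding protein, had means of 2.29, 2.57, 2.12 and 2.17 at 60 min against 3.20, 3.41, 3.45 and 3.14 at 30 min. Its difference was -1.01 ± 0.14 (SE, limma adjusted p = 0.002), with clones at -1.24 and -0.78. FIBP, which binds a fibroblast growth factor inside cells, was at -1.02 ± 0.17 (SE, 0.00504) with clones at -1.07 and -0.98, and CNKSR1, a scaffold of Ras signalling with 1 called clone, at -0.74 ± 0.13 (SE, 0.00638) with clones at -0.74 and -0.73. NUCB1, MRGBP and RPS16, a ribosomal protein of the small subunit, were called as genes with no called clone, and their clones lay on the same side (RPS16 at -0.66 and -0.38).

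Other genes passed by 1 clone. NARF had gene means of 1.46, 1.74, 1.68 and 1.41 at 60 min against 2.73, 3.01, 3.11 and 3.01 at 30 min, a difference of -1.39 ± 0.14 (SE, limma adjusted p = 0.000328). Its clones lay at -2.59 and -0.20. The same held for MANBAL (clones at -2.03 and -0.16), GPRC5C (-2.19 and -0.03), INTS15 (-1.69 and -0.16), VPS26B, a retromer subunit (-1.88 and -0.08), and SCGN, the calcium-binding protein secretagogin (-1.44 and -0.10). In each of these genes the second clone was not called. These uncalled clones were dimmer, with 35.3 to 109 units against 199 to 2167 units for the called clones.

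**Figure D3:**
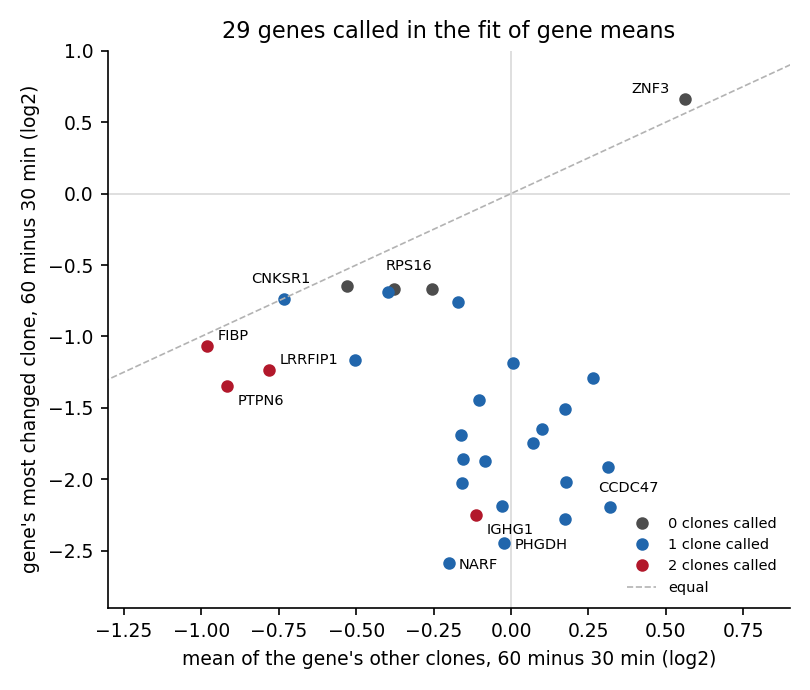
The 29 genes called in the fit of gene means: difference of 60 minus 30 min (log2) of the most changed clone (vertical) against the mean of the gene's other clones (horizontal). Points near the dashed line are genes whose clones moved alike, such as PTPN6, FIBP, LRRFIP1, CNKSR1 and ZNF3, and points far below it are genes called through 1 clone, such as NARF and CCDC47.

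Few genes were higher at 60 min. The clones of DPH7, an enzyme of diphthamide synthesis, and of AHCYL1, a relative of S-adenosylhomocysteine hydrolase, were called, with mean intensities of 57.4 and 43.8 units. The DPH7 clone had levels of 0.79, 0.41, 0.38 and 0.995 at 60 min against -0.10, -0.02, -0.23 and -0.32 at 30 min. All 60 min values were above all 30 min values, and the difference was 0.81 ± 0.18 (SE, limma adjusted p = 0.0371). The AHCYL1 clone had 1.11, 0.30, -0.50 and -0.39 at 60 min against -0.52, -0.01, -1.14 and -1.33 at 30 min. The groups overlapped, since the BiC/4AP values were high at both times, and the other AHCYL1 clones, both dim, were at -0.51 and -0.16. Neither call held with block and position medians removed, without an intensity trend, or without the 30 min Block, the 30 min Block + ActD, the 30 min BiC/4AP + ActD, the 60 min Block or the 60 min BiC/4AP + ActD array.

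Among genes with several clones ZNF3, a zinc finger protein, was called higher. Its means were 0.13, -0.18, 0.05 and 0.17 at 60 min against -0.31, -0.68, -0.47 and -0.81 at 30 min, a difference of 0.61 ± 0.13 (SE, limma adjusted p = 0.0264), with clones above the dim limit at 0.56 and 0.66 and a dim clone at -0.13. The call held in 12 of 21 alternatives and was lost with block and position medians removed, with dim clones included, and without the 30 min Block, the 30 min Block + ActD, the 60 min Block or the 60 min BiC/4AP + ActD array, with adjusted p-values of up to 0.974 over all alternatives. The genes that followed did not pass. KCTD15 had 4.04, 3.77, 3.93 and 3.62 at 60 min against 3.47, 3.10, 3.23 and 3.35 at 30 min, and TNFRSF21, a death receptor expressed in neurons, had 5.04, 4.96, 4.69 and 4.65 against 4.22, 4.83, 3.84 and 4.08. The 30 min BiC/4AP array had the highest of the 30 min values of TNFRSF21 and overlapped the 60 min arrays. TBC1D22A, KRTAP4-12, ACTL6A, TBC1D9B and TRIOBP had gene differences of 0.37 to 0.49 with limma adjusted p-values of 0.0941 to 0.102. Of these 7 genes, TNFRSF21 and TBC1D22A had 3 clones above the dim limit, all above 0.

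The number of higher clones turned on the 30 min BiC/4AP array. Without it limma called 701 clones, 348 lower and 353 higher, and 232 of the 236 lower clones remained. The 353 higher clones included 316 named clones above the dim limit, of 303 genes, with a median difference of 0.71 and a median brightness percentile of 97.0. In 11 of these genes 2 or more clones were called. The 140 uncalled clones of the same genes had a median of 0.03, and 76 of them lay above 0. These counts were examined after the effect of leaving out that array had been seen. Called and uncalled clones were split by the change itself, so the gap between these medians was not tested.

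Agreement between clones was also measured over all 2425 pairs of clones of a gene above the dim limit. The fitted differences had the same sign in 56.0% of pairs, against 52.2% from the overall split of signs, with a Pearson correlation across pairs of 0.11 and a Spearman correlation of 0.16. Pairs share arrays and genes and are not independent. Mean levels of the paired clones agreed little more, with 60.0% on the same side, against 53.1% from the split of signs, and a correlation of 0.18. Disagreement between clones of a symbol was thus also present in their levels. By arm the correlation was 0.02 in BiC/4AP + ActD, 0.32 in BiC/4AP, 0.07 in Block + ActD and 0.06 in Block. The same sign was shared by 51.5% of pairs in BiC/4AP + ActD (50.1% from the split of signs), 58.5% in BiC/4AP (50.5%), 56.9% in Block + ActD (50.3%) and 51.2% in Block (50.1%), so that by this measure Block + ActD also lay above its split. Without the 30 min BiC/4AP array the correlation of the fitted differences was 0.06 and 54.7% of pairs had the same sign. Only 0.247% of the pairs lay in the same block and 7.42% at the same position.

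**Figure D4:**
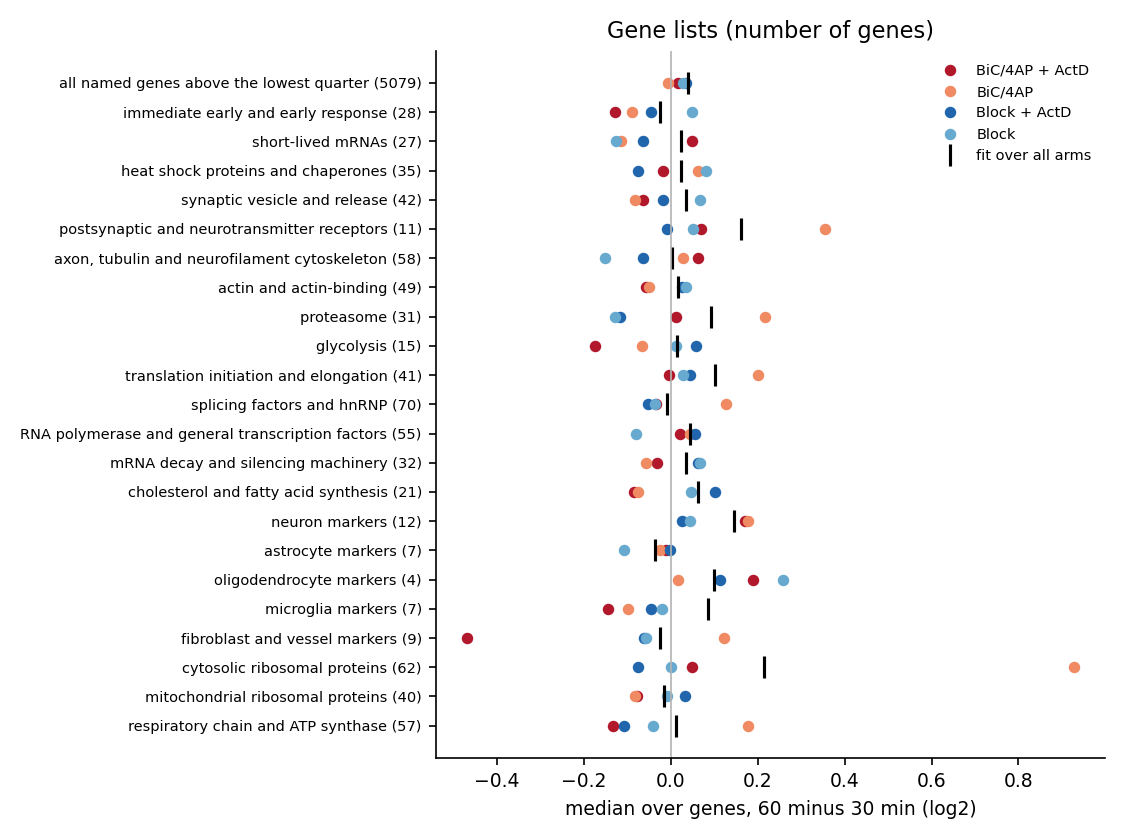
Median over the genes of each list of the difference of 60 minus 30 min (log2), in each of the 4 arms (points, 1 array against 1 array) and in the fit over all arms (bar). All named genes are at the top. Cytosolic ribosomal proteins in BiC/4AP, at 0.93, lie apart from the other medians, most of which were within 0.2 of 0.

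Genes of cytosolic ribosomal proteins, which form the ribosome and have some of the most abundant mRNAs of a cell, were the list with the most uniform sign. Of 62 measured genes 50 lay above 0, compared with 57.2% of all 5079 named genes, and the median was 0.21, compared with 0.04. Their median level was 1.68 in BiC/4AP + ActD, 1.72 in BiC/4AP, 1.61 in Block + ActD and 1.62 in Block at 60 min, against 1.70, 0.72, 1.89 and 1.68 at 30 min. The 30 min BiC/4AP array was low and the other 7 arrays were alike. The median difference was 0.93 in BiC/4AP, with 56 of 62 genes above 0, but 0.05 in BiC/4AP + ActD, -0.08 in Block + ActD and 0.00 in Block. Without the 30 min BiC/4AP array the median was 0.000269, and 31 of the 62 genes lay above 0. The 5 min BiC/4AP array had a level of 1.72, so the low value belonged to 1 array of the 12.

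By correlation, clones of ribosomal protein genes moved most alike in the BiC/4AP arm. Over 224 pairs of 37 genes the correlation of the BiC/4AP differences was 0.55. It was 0.00 in BiC/4AP + ActD, 0.20 in Block + ActD and -0.02 in Block. In BiC/4AP 76.8% of pairs had the same sign, against 66.9% from the split of signs. In Block + ActD 69.2% had the same sign, against 50.3% from the split, which was a wider gap than in BiC/4AP. Without ribosomal protein genes the BiC/4AP correlation was 0.24. RPL38 had levels of 3.56, 3.09, 3.79 and 3.37 at 60 min against 3.54, 1.58, 3.12 and 2.93 at 30 min, with the BiC/4AP array lowest at both times. STMN2, a neuronal regulator of microtubules, shared the low 30 min BiC/4AP value, with 2.04, 1.88, 2.10 and 1.57 at 60 min against 1.69, 0.09, 1.69 and 1.75 at 30 min. Neither passed, at limma adjusted p-values of 0.221 and 0.309. The called ribosomal protein clones were 1 of 3 clones of RPL14 (-1.82) and 1 of 7 of RPL13 (-1.08), both lower, and no ribosomal protein clone was called higher.

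**Figure D5:**
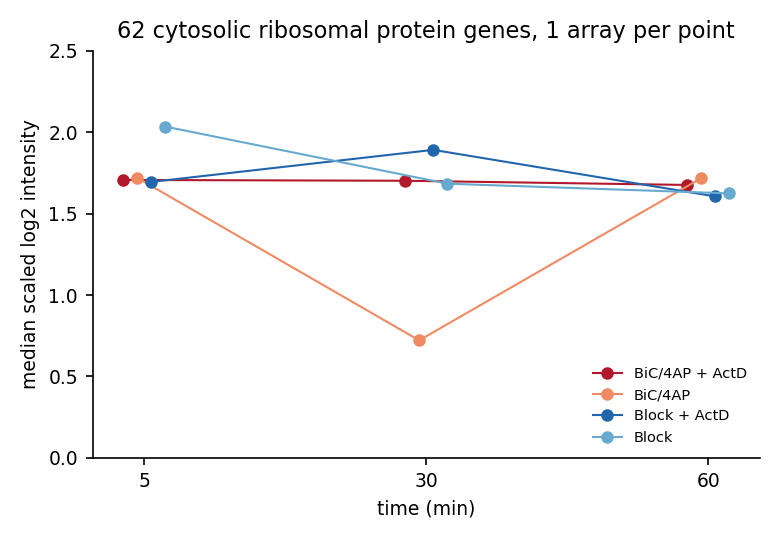
Median scaled log2 intensity of 62 cytosolic ribosomal protein genes at 5, 30 and 60 min in the 4 arms, with 1 array per point. The 30 min BiC/4AP array was at 0.72, and the other 11 arrays were between 1.61 and 2.03.

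Immediate early and early response genes did not move as a group. Of 28 measured genes 14 lay above 0 and 14 below, the median was -0.03, and no clone was called. FOS, the transcription factor gene first switched on by activity, had levels of -0.56, -0.49, -0.44 and -0.12 at 60 min against -0.98, -0.42, -0.68 and -0.32 at 30 min, which overlapped, with a difference of 0.20 ± 0.16 (SE, limma adjusted p = 0.666). ARC, which acts at synapses, was at -1.24, -0.78, -0.75 and -0.80 against -0.78, -0.78, -0.57 and -0.63, a difference of -0.20 ± 0.17 (SE, 0.685). The FOS and ARC clones had mean intensities of 34.6 and 32.9 units, close to the dim limit. NR4A1, a nuclear receptor, differed by -0.33 ± 0.16 (SE, 0.419), and HOMER1, a postsynaptic scaffold, by 0.22 ± 0.16 (0.621). ZFP36 and FOSL2 had no overlap between times: ZFP36, which promotes decay of AU-rich mRNAs, was at 0.24, 0.22, 0.39 and 0.17 at 60 min against 0.68, 0.97, 1.07 and 0.50 at 30 min, with a limma adjusted p of 0.0977.

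Short-lived mRNAs, those with AU-rich elements or rapid turnover, had a median of 0.02 over 27 genes, 14 of them above 0. With ActD the median was 0.05 in BiC/4AP + ActD and -0.07 in Block + ActD, and without ActD it was -0.11 in BiC/4AP and -0.13 in Block. ARRDC3, an arrestin, was the called gene of this list, at 3.91, 4.14, 3.68 and 3.67 at 60 min against 5.00, 4.41, 5.01 and 4.53 at 30 min. Its difference of -0.89 ± 0.20 (SE, limma adjusted p = 0.0301) had a single clone behind it. The call held in 11 of 21 alternatives and was lost without any 1 of 6 arrays, all but the 30 min and the 60 min BiC/4AP arrays, with quantile normalization and with block and position medians removed, with adjusted p-values of up to 0.999. MYC had clones at 0.17 and 0.02, and MCL1, at -0.99 ± 0.29 (SE, 0.149), had 1 dim clone of 11.3 units.

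The other lists stayed near 0, and 20 of all 22 list medians changed sign under at least 1 alternative, so no direction is given to a list. Synaptic vesicle genes had a median of 0.03 (24 of 42 above 0). CLTB, a clathrin light chain with a single clone, was called at -0.85 ± 0.17 (SE, limma adjusted p = 0.0154). Postsynaptic genes and receptors had 0.16 (7 of 11), proteasome genes 0.09 (16 of 31), translation factors 0.10 (29 of 41), splicing factors -0.01 (34 of 70), heat shock proteins 0.02 (20 of 35), glycolysis 0.01 (8 of 15), mRNA decay machinery 0.03 (18 of 32), and cholesterol and fatty acid synthesis 0.06 (14 of 21). Over the 6600 named clones above the dim limit 3.29% were called, and the share by list ran from 0% to 10%, with 1 of 10 fibroblast and vessel clones at the upper end. In glycolysis 3 of 39 clones were called, 1 of HK1, the hexokinase of brain, and 2 of 6 of ALDOA, an aldolase whose remaining clones reached 0.51.

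Whether the change between 30 and 60 min depended on transcription was tested as the interaction of time and ActD. limma called none of 9600 clones (0%), with a smallest adjusted p of 0.516. At an unadjusted p under 0.05 there were 923 clones, where 480 would be expected with no change. The TFPI clone, for an inhibitor of blood coagulation, had -0.36, -0.80, 0.43 and -0.95 at 60 min against -0.50, 0.60, -0.09 and 0.46 at 30 min, an interaction of 1.73 ± 0.37 (SE). The CCL5 clone, for a chemokine, had an interaction of 1.66 ± 0.34 and the YJU2 clone, for a splicing factor, 1.55 ± 0.31, while the other YJU2 clone had -0.47. In all of these the pair of 30 min arrays without ActD was high. The clones of RNH1, PPOX and EIF4E had interactions of -2.20, -1.32 and -1.25, and the other clones of RNH1, at 0.02 and 0.44, did not share it. Without the 30 min Block array 548 clones were called in this interaction, and with any other array left out 0 to 3 were, which for the 60 min Block and the 60 min Block + ActD array was 3.

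The interaction of time and activity was likewise not called for any clone (0%), with a smallest limma adjusted p of 0.933. At an unadjusted p under 0.05 there were 453 clones, where 480 would be expected with no change. The clone with the smallest p was that of ZFP36L1, which promotes decay of AU-rich mRNAs. It had 0.75 in BiC/4AP + ActD, 0.44 in BiC/4AP, -0.90 in Block + ActD and -1.03 in Block at 60 min, against -0.51, -0.90, -0.62 and -0.71 at 30 min. Both BiC/4AP arrays of 60 min lay above the other 6 arrays, with and without ActD, and the interaction was 1.595 ± 0.31 (SE), from a single clone of 38.8 units. TMSB4X, an actin monomer-binding protein, had 2.77, 3.28, 2.59 and 2.68 at 60 min against 2.45, 2.25, 3.45 and 3.71 at 30 min, an interaction of 1.63 ± 0.34, and its other clone had 0.96. The CALR clone, for the chaperone calreticulin, had 1.54 ± 0.32, whereas its other clones had -0.11 and -0.46. With the 30 min BiC/4AP + ActD array left out 306 clones were called, and with any other array left out 0 or 1.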

How the data were processed

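Total RNA was labelled and hybridized to cDNA arrays of 9600 spots, 1 array per pooled sample. The intensity values were deposited by the authors as raw spot intensities, and the authors' methods name a z-score transformation of raw intensities without further detail. A related scaling was used here: every array's log2 intensities were brought to mean 0 and to the average SD found over the 12 arrays. No background was subtracted here, and the number of arrays limits the precision. Spots at the blank position of a block had a 95th percentile of 14.7 to 22.7 units on the 60 min arrays. On the 30 min arrays it was 17.6 units for BiC/4AP and 10 units for each of the others. The part of background in the results was not tested. limma 3.58.1 in R 4.3.3 fitted time with activity and ActD as covariates (two-sided, intensity trend, 4 residual degrees of freedom, 3 for interactions), with Benjamini-Hochberg adjustment over all clones or genes fitted and a threshold of 0.05. Gene values were means over clones with 1 symbol above the dim limit.

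Named were the 8 genes with several clones of the smallest p in each direction whose clones lay on one side, the 6 such clones in each direction with every other clone of their gene, the 2 genes in each direction of each list, the 3 clones in each direction of each interaction, and a list of early response genes, of which EGR1 and BDNF were not analysed here. Other genes named were chosen after their values were seen. The members and lists were chosen with earlier results of these data known. Alternatives were another scaling, an offset of 20 units, filters on dim, placeholder and blank-position spots, removal of block and position medians, the arms as a block, all 12 arrays, no intensity trend, each array left out, and fits within each activity and ActD level. On simulated data of 9600 clones for the comparison of times, with 200 changed, 58% of clones changed by 1 on the log2 scale and 88% of those changed by 2 were called, with 10 false calls. The simulated noise was drawn independently for every clone and array, with no part shared over an array or a printing position. These shares and the count of false calls therefore need not hold for the real arrays. The block and position of a spot were taken from the order of the deposited spots.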

Additional observations from a re-analysis of the deposited data

Results flagged for a closer look

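In groups of 4 arrays, 126 groups of values were checked for 1 array far from the other 3, and 4 were found (3.17%), where chance gives about 1 in 20. The median level of the synaptic vesicle and release genes was -0.00142 on the 60 min BiC/4AP array and 0.183 to 0.205 on the other 60 min arrays. The gene mean of VPS26B, a retromer subunit, was 0.943 on the 60 min BiC/4AP + ActD array and 1.07 to 1.08 on the other 60 min arrays. The median level of postsynaptic and receptor genes was 0.0535 on the 30 min BiC/4AP array, against 0.242 to 0.28 on the other 30 min arrays, and that of fibroblast and vessel markers was -0.165 on the same array, against 0.16 to 0.196 on the others.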

How the results depend on the processing

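Of 138 tested differences and interactions of clones and genes, 123 kept their sign under the alternatives run, and the 15 that did not had adjusted p-values of 0.373 or more in limma. Of 22 list medians, which carried no test, 20 changed sign under at least 1 alternative. The lower clones numbered 154 without ActD, 476 with ActD, 462 in Block and 78 in BiC/4AP, with 1 residual degree of freedom each. All calls were 941 with ActD, 798 in Block and 87 in BiC/4AP. Higher clones were 28 with quantile normalization, 4 with block and position medians removed, 1 with the arms as a block, 4 with all 12 arrays, 14 without ActD, 465 with ActD, 336 in Block and 9 in BiC/4AP. Genes with several clones called were 47 with median centring, 51 with all 12 arrays, 88 with ActD, 139 in Block, and 0 both without ActD and in BiC/4AP. The interaction of time and ActD had 1 call with block and position medians removed. Lists with a median above 0 were 17 of 22, and 11 both with block and position medians removed and in Block. With 1 array left out, calls ran from 140 (60 min BiC/4AP + ActD) to 701 (30 min BiC/4AP), lower calls from 140 to 348 with the same arrays, higher calls from 0 to 353, gene calls from 15 to 108, calls of the interaction of time and ActD from 0 to 548 and of time and activity from 0 to 306, lists above 0 from 10 to 18, and clone pairs of the same sign from 54.7% to 57.0%. Lower calls were 142 without the 30 min Block + ActD array and 148 without the 60 min Block array, and gene calls 16, 17 and 19 without the 30 min Block + ActD, the 60 min Block and the 30 min Block array. The cause was not tested.

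Changes of sign on the log2 scale were as follows. The second MYC clone was at -0.0042 with median centring, -0.35 without ActD, -0.16 in Block and from -0.13 to 0.23 with 1 array left out. With block and position medians removed GFAP was at 0.12, SOX10 at 0.0013 and CD14 at 0.28. With 1 array left out the second JUN clone ran from -0.25 to 0.087, the third JUNB clone from -0.064 to 0.15, the first JUNB clone from -0.077 to 0.26, SOX10 from -0.15 to 0.10, MBP from -0.33 to 0.17, and AIF1 from -0.0059 to 0.28. Without ActD the first JUNB clone was at -0.31, CAMK4 at 0.30 and SOX10 at 0.13. With ActD the second JUNB clone was at 0.17, the second JUN clone at 0.041, CHGB at 0.22, MBP at 0.078, CD14 at 0.028 and AIF1 at -0.025. In Block HOMER1 was at -0.0072, ZFP36L1 at -0.29, MBP at 0.11, AIF1 at -0.063 and COX6A1 at -0.12. In BiC/4AP the third JUNB clone was at -0.016, CAMK4 at 0.012, CHGB at 0.020, GFAP at 0.072 and SOX10 at 0.17. By replicate number no paired analysis was possible because all 12 samples carry the number 2. The times could be paired within arms, and with the arms as a block this gave 219 lower clones, 218 of them among the 236.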
